A study of Drosophila melanogaster with 4 samples.

Results

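Mitochondrial ribosomal protein genes were taken as the protein-coding genes whose symbol begins with mRpL or mRpS in the Ensembl annotation of the BDGP6 assembly. There were 73 of them among 13945 protein-coding genes on the main chromosome arms, 47 named for the large subunit (mRpL) and 26 for the small subunit (mRpS). The symbol rule uses no measurement. It leaves out tko and bonsai, the fly genes for mitochondrial S12 and S15 proteins, which are given at the end for comparison. Each gene was read at its promoter, defined as 500 bp on either side of an annotated transcript start, and 67 of the 73 genes had a single annotated start.

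Whole ovaries of Drosophila melanogaster were assayed by chromatin immunoprecipitation and sequencing (ChIP-seq) for H3K4me3, histone H3 trimethylated on lysine 4. In lid KD females (MTD-Gal4>shRNA lid) the maternal triple driver was combined with a hairpin RNA that targets lid, which encodes the fly KDM5 enzyme that removes this methylation. In control females (MTD-Gal4>+) the same driver was present without a hairpin. There were 2 libraries in each group, and the question was where promoter peaks differ once Lid is depleted from germ cells. The driver acts in the germline, so the somatic follicle cells of these ovaries keep Lid, and each library pools many ovary pairs. The tissue label gives females of 3 days of age, while the extraction protocol of the same samples names virgins of 0-1 day and the methods a further age, so age was not used.

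Mitochondrial ribosomes translate the few proteins encoded by mitochondrial DNA, which are subunits of the respiratory chain and of ATP synthase. All proteins of these ribosomes come from nuclear genes, and the growing egg chamber builds up a large stock of mitochondria that the embryo inherits. Some members descend from bacterial ribosomal proteins and others are additions found in mitochondria. In flies many housekeeping promoters are divergent, that is, a pair of genes lies head to head on opposite strands and is transcribed outward from a shared interval. H3K4me3 sits on the first nucleosomes downstream of a start site, so at a divergent promoter each gene can carry its own peak.

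A divergent neighbour was the rule for these genes. The nearest opposite-strand start of another gene lay within 500 bp upstream for 53 of the 73 members (72.6%), against 29.6% of all protein-coding genes and 50.1% of the 6735 genes with a promoter peak in every library. The share was 41.3% for the 92 cytoplasmic ribosomal protein genes and 45.8% for 24 other mitochondrial translation genes (elongation, initiation and release factors and mitochondrial tRNA synthetases). It was as high as in members, 72.7%, for the 11 genes of mitochondrial transcription and replication. Within 250 bp there were 25 such members and within 1000 bp 58. All of these neighbours within 500 bp were protein-coding, the median distance between the starts was 264 bp, and no pair of members shared a promoter. The closest starts were those of mRpL18 and Taz, 20 bp apart, where Taz encodes tafazzin, an enzyme of cardiolipin remodelling in mitochondria. Next came mRpS14 and Naa15-16, which encodes a subunit of an N-terminal acetyltransferase, with 21 bp, mRpL23 and CG9004 with 24 bp, and mRpL46 and CG2021 with 28 bp.

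The intervals between the paired starts are printed here because they show how little sequence separates a mitochondrial ribosomal protein gene from its neighbour. They were read from the NCBI dm6 genome (Release 6) on the strand of the member, from the first base of the neighbour to the first base of the member. Capitals mark an E-box (CACGTG) in the mRpS14 interval, Ohler motif 6 in that of mRpL15 and Ohler motif 1 in that of mRpL48. In the longer interval of mRpL39, which had the highest mean rank of all members, they mark the DNA replication-related element (DRE, TATCGATA) near either end and a nuclear respiratory gene (NRG) element between them. Its neighbour Prosbeta2 encodes a proteasome subunit, CtIP a protein of DNA end resection and Uba4 an activating enzyme for a ubiquitin-like protein. The intervals are chrX:19480238-19480259 (mRpS14, minus strand), chr3L:2373704-2373728 (mRpL23, minus strand), chr3L:1777411-1777439 (mRpL46, plus strand), chr2L:8517380-8517411 (mRpL51, minus strand), chr3L:20436209-20436250 (mRpL15, minus strand), chr2L:1710421-1710462 (mRpL48, plus strand) and chr3L:14999666-14999951 (mRpL39, minus strand).
mRpS14 and Naa15-16: aCACGTGttcacgcgcttcgcg
mRpL23 and CG9004: tgtttaaaacaagtgttggacaacc
mRpL46 and CG2021: ccgataacgataactgtgccgcaaatcag
mRpL51 and Uba4: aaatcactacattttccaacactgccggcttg
mRpL15 and CtIP: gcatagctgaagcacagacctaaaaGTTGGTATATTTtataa
mRpL48 and CG17660: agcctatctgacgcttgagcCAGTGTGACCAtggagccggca
mRpL39 and Prosbeta2: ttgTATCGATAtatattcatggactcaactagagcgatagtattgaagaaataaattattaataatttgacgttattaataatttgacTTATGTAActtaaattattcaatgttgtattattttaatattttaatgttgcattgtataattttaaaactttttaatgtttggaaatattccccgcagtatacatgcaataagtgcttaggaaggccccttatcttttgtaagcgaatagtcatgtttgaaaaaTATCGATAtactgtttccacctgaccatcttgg

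Over windows from 250 bases before to 50 bases after the start, searched on both strands, the DRE was found in 15 members (20.5%), against 9.36% of all protein-coding genes and 17.1% of genes with a promoter peak in every library. The DRE is bound in flies by DREF, a regulator of housekeeping and growth genes. Ohler motif 7 was found in 17 members (23.3%), against 9.29% and 15.6%. The NRG element, searched as TTACATAA, TTACGTAA, TTATATAA or TTATGTAA, was found in 6 members (8.22%), against 5.18% and 5.97%, and the E-box in 5 (6.85%), against 4.20% and 4.97%. The TATA box (TATAAA) was as frequent in members as elsewhere, with 46.6% against 45.8% and 45.3%. Ohler motifs 1 and 6 were found in 8.22% and 4.11% of members, against 8.78% and 4.13% of genes with a promoter peak in every library. These are matches of letters in a window, not binding sites. The GC content of the 1001 bp around the start had a median of 43.6% in members and 42.4% in all genes.

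The peak lists held 12832 and 13501 peaks in the lid KD libraries and 12087 and 25302 in the control libraries. The background coverage shared by peaks at the floor of each list, the only measure of depth these lists give, lay between 48.4 and 60.1 fragments per base. The paper describes the libraries of each group as biological replicates. The lid KD libraries differed by no more than sampling noise, with a standard deviation (SD) of 0.977 counting errors over 5943 genes and 0.919 over 54 members. Such agreement does not show whether the samples were independent. For caution the pair was counted as 1 sample, and the number of independent samples was taken as 3. Calls below use both lid KD values, and are given again with the pair averaged as 1 sample. The control pair differed by 2.75 counting errors over all genes and 2.22 over members. Among the markers of the ovary, 6 of 9 germ cell genes and 8 of 8 follicle cell genes had a promoter peak in all 4 libraries, while vas, a defining germ cell gene, had none in any library. None of 3 muscle genes and none of 2 fat body genes had a peak in all 4. At lid itself, named Kdm5 in the annotation, the promoter peak had a percentile rank of 78.3 and 78.2 in lid KD and 82.5 and 78.6 in control, which does not measure the transcript.

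Nearly every mitochondrial ribosomal protein gene carried H3K4me3 at its promoter in these ovaries. A promoter peak was present in all 4 libraries for 71 of the 73 members (97.3%), where the background was 48.3% of all protein-coding genes, and every member had one in at least 1 library. By library there were 72 and 72 members with a peak in lid KD and 73 and 71 in control. Of the cytoplasmic ribosomal protein genes 84 of 92 had a peak in all 4 libraries, and 4 had none. The other mitochondrial translation genes had one in 24 of 24 cases, and the genes of mitochondrial transcription and replication in 11 of 11.

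The exceptions were mRpL33 and mRpS5. mRpL33 (chrX:4321764-4322231), whose bacterial relative L33 is a small protein of the large subunit, had promoter peaks with a fold enrichment of 2.07 and 2.27 in lid KD and of 2.93 in control replicate 1. No peak was called at its promoter in control replicate 2. Its divergent neighbour, 395 bp away, is norpA, the phospholipase C of fly phototransduction. mRpS5 (chr3L:24537236-24543534), whose bacterial relative S5 belongs to the body of the small subunit, had no promoter peak in either lid KD library or in control replicate 2. Its only promoter peak, in control replicate 1, ranked at 43.9, with a fold enrichment of 2.13 and a summit coverage of 2.15 times the background. A gene without a called peak can still carry the mark below the calling limit.

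The level of each promoter was compared in the 2 ways the lists allow. Fold enrichment relates the coverage at a summit to the local background of the same library, and its percentile rank places the strongest promoter peak of a gene among the 12087 strongest peaks of each list, where 100 is the strongest. Summit coverage relates the same fragments to the floor background of the library. By rank the members lay slightly below the median promoter, with medians over 70 members of 71.9 and 72.1 in lid KD and 74.9 and 75.5 in control, against 77.5 and 77.6 in lid KD and 78.4 and 78.9 in control over 6553 genes. By summit coverage they lay above it, with medians of 27.6 and 26.7 times the background in lid KD and 18.7 and 28.3 in control, against 23.4 and 22.2 in lid KD and 15.4 and 17.7 in control for all genes with a promoter peak. Genes with a divergent neighbour and a peak in all 4 libraries came close to members. Their medians were 26.8 and 25.6 in lid KD and 17.7 and 26.7 in control. Members without such a neighbour had 28.4 and 26.7 in lid KD and 18.7 and 29.0 in control. The part of the neighbour in coverage was not tested. The local background at the summit differed too. It was 4.66 and 4.57 times the floor in lid KD and 3.56 and 4.15 in control at members. At the 6735 genes it was 3.39 and 3.31 in lid KD and 2.71 and 2.92 in control. At those of them with a divergent neighbour it was 4.12 and 4.00 in lid KD and 3.19 and 3.53 in control. In whole ovaries a lower signal per cell and fewer cells with the mark cannot be told apart.

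Coverage was also more even among members than among genes at large. The distance between the quartiles on the log2 scale was 0.32 and 0.29 in lid KD and 0.31 and 0.56 in control for 70 members, against 0.90 and 0.87 in lid KD and 0.81 and 1.24 in control for 6712 genes. The cytoplasmic ribosomal protein genes, which serve the ribosomes of the cytosol, had a similarly narrow spread at a higher level, with 0.32 and 0.30 in lid KD and 0.32 and 0.41 in control. Their median coverage relative to that of all genes was 0.51 and 0.46 in lid KD and 0.58 and 0.77 in control on the log2 scale, where members had 0.20 and 0.21 in lid KD and 0.23 and 0.31 in control. The spread at genes with a divergent neighbour was also narrower than at genes at large. There the quartiles of coverage were 21.8 to 31.2 and 21.1 to 29.6 times the background in lid KD. In control they were 14.9 to 20.5 and 19.5 to 32.7. Members had 24.5 to 30.7 and 24.0 to 29.6 in lid KD, and 15.9 to 20.7 and 22.4 to 32.9 in control. The 6735 genes had 15.8 to 29.6 and 15.4 to 28.2 in lid KD, and 11.1 to 19.5 and 12.9 to 30.7 in control.

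**Figure D1:**
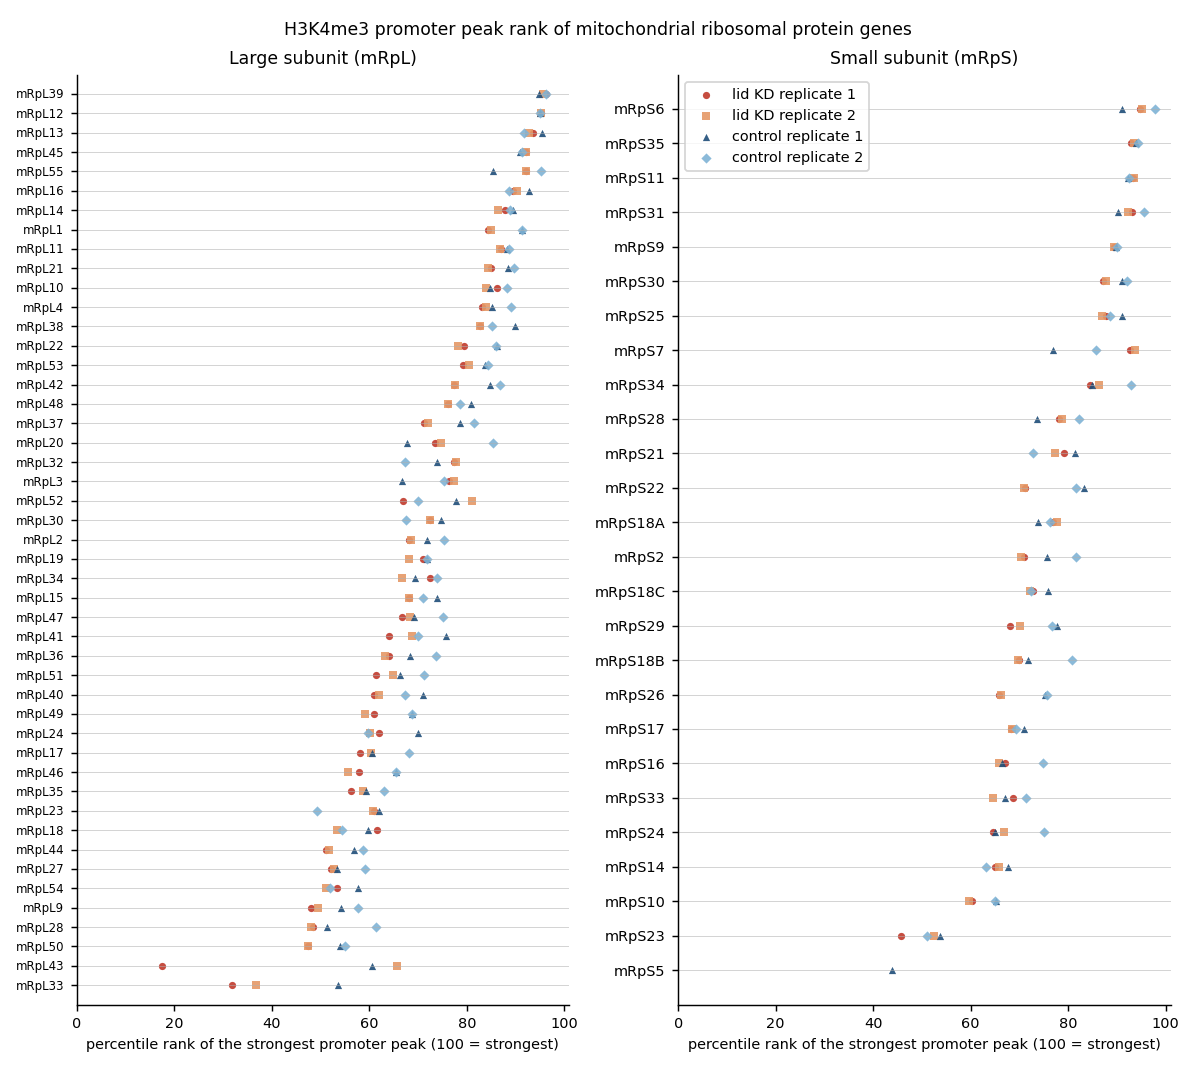
Percentile rank of the strongest promoter peak of each mitochondrial ribosomal protein gene in the 4 libraries (100 is the strongest of 12087 peaks), with large subunit genes on the left and small subunit genes on the right, ordered by their mean. Points are libraries (lid KD orange and red, control blue). By the mean of its libraries mRpL39 is highest and mRpL33 lowest, the lowest single point is that of mRpL43 in lid KD replicate 1, and most lid KD points lie on or just left of the control points of the same gene.

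At the top of this order stood mRpL39, mRpL12, mRpS6 and mRpS35. mRpL39, an addition of mitochondrial ribosomes, ranked at 96.3 and 95.6 in lid KD and 94.7 and 96.3 in control. mRpL12, whose bacterial relative forms the stalk that engages translation factors, ranked at 95.3 and 95.3 in lid KD and 95.0 and 95.0 in control. Both genes kept their place with overlapping or nearly equal values, although the strongest peak of mRpL39 lay on the Prosbeta2 side and mRpL12 (chr3L:8956791-8957584) had no divergent neighbour. mRpS6 ranked at 94.7 and 95.2 in lid KD and 91.0 and 97.8 in control, and mRpS35 at 92.9 and 93.4 in lid KD and 93.8 and 94.4 in control. Adjacent genes of this order overlapped in their values.

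At the bottom, among members ranked in all 4 libraries, stood mRpS23, mRpL50, mRpL28 and mRpL9. mRpS23 ranked at 45.7 and 52.4 in lid KD and 53.8 and 51.0 in control. mRpL50, an addition of mitochondrial ribosomes, ranked at 47.5 and 47.5 in lid KD and 54.1 and 55.1 in control. mRpL28 ranked at 48.5 and 48.0 in lid KD and 51.3 and 61.4 in control, and mRpL9 at 48.1 and 49.6 in lid KD and 54.2 and 57.6 in control. In lid KD replicate 2 the strongest summit of mRpS23 lay 1427 bp downstream of the start, against 280 bp in replicate 1 and 268 and 292 bp in control, so its ranks compare different sites. Its summit coverage of 21.4 and 30.7 times the background in lid KD and 14.3 and 20.3 in control was below the lower quartile of members in every library but lid KD replicate 2. At the other genes coverage was close to the medians of all members, with 27.9 and 26.8 times the background in lid KD and 18.8 and 28.9 in control at mRpL50. At mRpL28 it was 29.5 and 27.8 in lid KD and 17.8 and 30.5 in control, and at mRpL9 27.4 and 26.7 in lid KD and 18.1 and 30.3 in control.

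Peak summits at member promoters lay to either side of the start, while some peaks also covered the start. Taking summits within 1000 bp of the start, 65 and 64 members in lid KD and 67 and 68 in control had a peak on the gene side, with a median summit 307 and 308 bp downstream in lid KD and 269 and 293 bp in control. The start base itself was inside a peak in 18 and 22 members in lid KD and in 36 and 20 in control. An upstream peak was present in 38 and 38 members in lid KD and in 34 and 35 in control. All of these belonged to the 53 members with a divergent neighbour, and in every one the summit lay beyond the start of that neighbour. None of the 20 members without such a neighbour had an upstream peak in any library. Among other genes with a promoter peak in all 4 libraries, an upstream peak was found at 70.6% and 70.2% in lid KD and at 73.1% and 66.5% in control of the 3320 with a divergent neighbour, and at 11.6% and 12.1% in lid KD and at 10.5% and 13.6% in control of the 3344 without.

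**Figure D2:**
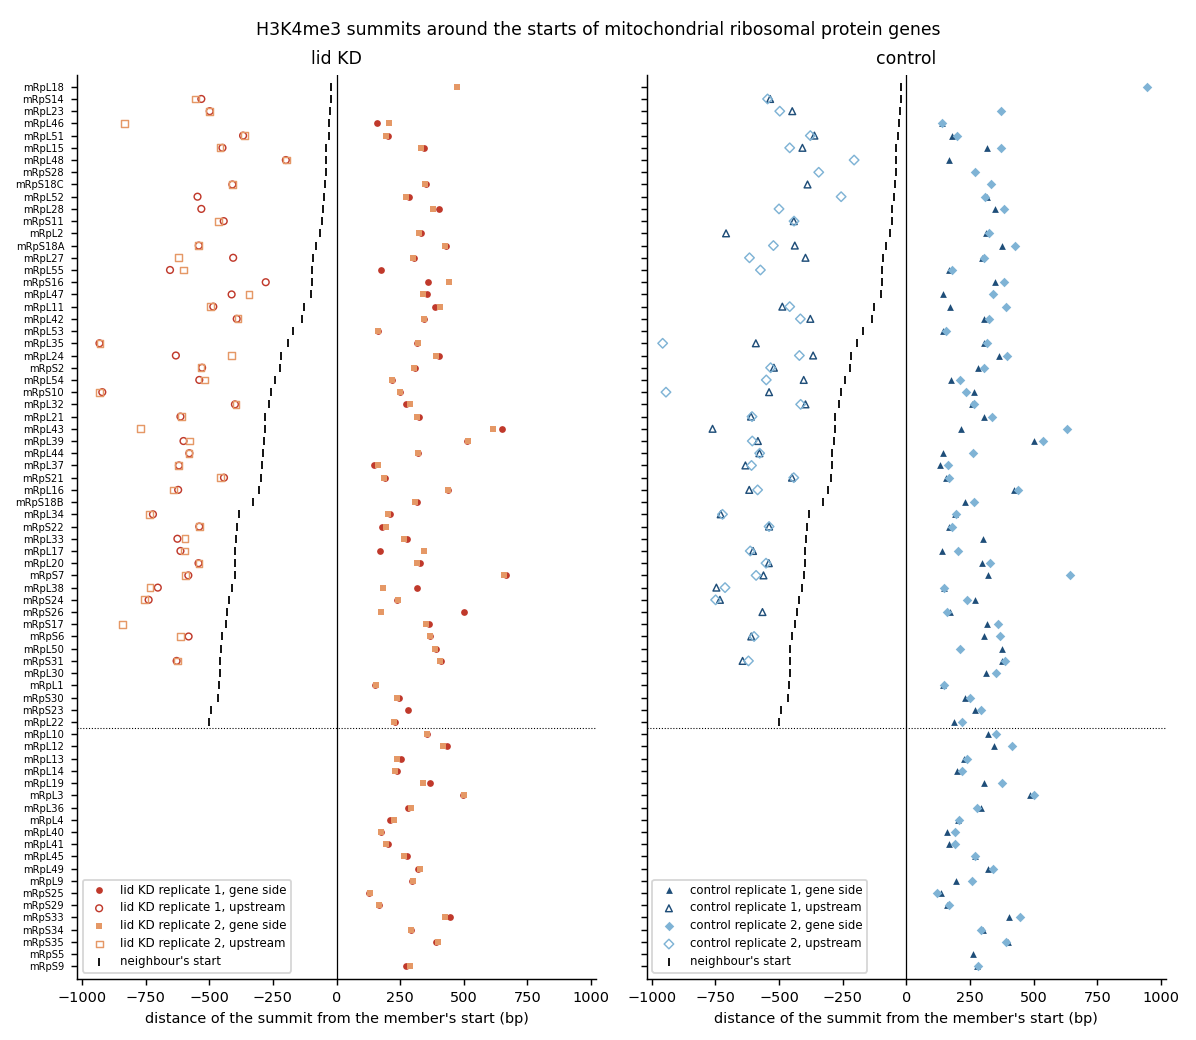
Position of the strongest H3K4me3 summit on each side of the start of each mitochondrial ribosomal protein gene, in bp with the direction of transcription to the right (lid KD on the left, control on the right). Filled symbols are gene-side peaks, open symbols upstream peaks and black ticks the start of the divergent neighbour. Genes are ordered by the distance to it, and the 20 genes under the dotted line, with no neighbour within 500 bp, have no open symbol.

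At 26 members both peaks could be followed in all 4 libraries. The gene-side peak had the higher summit coverage in all 4 for 8 of them, the upstream peak for 9, and the order varied for 9. mRpL16, whose bacterial relative sits near the peptidyl transferase centre, shows a promoter whose strongest peak by fold enrichment lies on the side of its neighbour. That neighbour is trr, 306 bp away, which encodes a histone H3 lysine 4 methyltransferase. The strongest peak at the mRpL16 promoter was the one that trr also had, with a rank of 89.6 and 90.4 in lid KD and of 92.8 and 88.7 in control for both genes. The gene-side peak of mRpL16 ranked at 67.0 and 64.4 in lid KD and 62.9 and 63.9 in control.

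Members with a divergent neighbour had wider marked regions, as had genes at large with such a neighbour. The summed width of the members' promoter peaks had a median of 1355 and 1453 bp in lid KD and 1386 and 1212.5 bp in control, and that of members without a neighbour 745 and 735 bp in lid KD and 744.5 and 722 bp in control. Over all genes with a promoter peak in all 4 libraries it was 1389 and 1416 bp in lid KD and 1494 and 1250 bp in control with a neighbour. Without one it was 862 and 881 bp in lid KD and 916 and 818 bp in control. The median rank of members with a neighbour was lower, at 71.2 and 71.0 in lid KD and 73.8 and 75.1 in control, against 83.0 and 83.9 in lid KD and 84.7 and 88.2 in control at members without. Summit coverage was alike in both classes, with 27.4 and 26.8 times the background in lid KD and 18.6 and 28.1 in control at members with a neighbour, against 28.4 and 26.7 in lid KD and 18.7 and 29.0 in control at those without. Genes at large differed from this. With a neighbour their median ranks were 77.0 and 77.3 in lid KD and 78.7 and 80.5 in control. Without one they were 78.1 and 78.1 in lid KD and 78.1 and 77.1 in control. Their coverage was 26.8 and 25.6 times the background in lid KD and 17.7 and 26.7 in control with a neighbour. Without one it was 19.6 and 18.8 in lid KD and 13.1 and 17.2 in control. The local background was 4.89 and 4.75 times the floor in lid KD and 3.61 and 4.43 in control at members with a neighbour, against 4.19 and 4.07 in lid KD and 3.24 and 3.40 in control at those without. Its part in the ranks was not tested. The widest promoters were those of mRpS14, with 2529 and 2537 bp in lid KD and 2515 and 2457 bp in control, of mRpL46, with 2389 and 2257 bp in lid KD and 2450 and 2260 bp in control, and of mRpS28, with 2608 and 2606 bp in lid KD and 2646 and 1263 bp in control. For mRpS28 the low value came from control replicate 2, where the region was called as separate peaks.

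**Figure D3:**
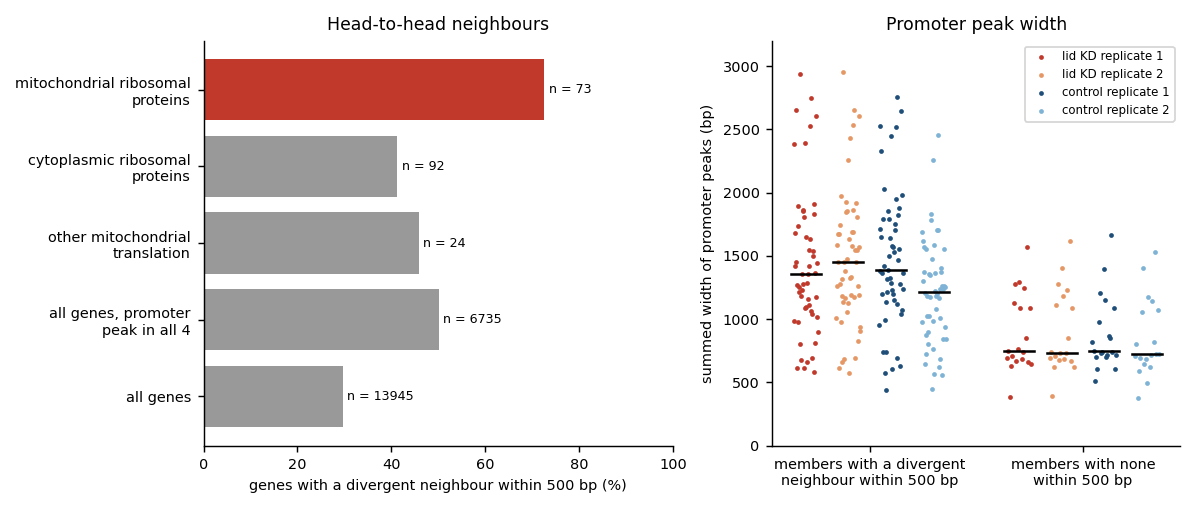
Left, share of genes with a divergent neighbour within 500 bp (in %) for mitochondrial ribosomal protein genes (red, 72.6%) and for comparison lists and all genes (grey), with n genes beside each bar. Right, summed width of promoter peaks in bp for members with and without such a neighbour, where points are genes, colours are libraries (lid KD, then control) and black lines are medians, between 1212.5 and 1453 bp with a neighbour and between 722 and 745 bp without.

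Few of these promoters differed between lid KD and control ovaries. A gene was called different in rank when both lid KD libraries lay above, or below, both control libraries by at least 10 points. With 2 against 2 libraries, or 1 lid KD sample against 2 controls, an exact permutation test cannot give a p-value under 0.33, so calls are read against the share of all genes that meet the same rule. Of the 70 members with a rank in all 4 lists, none was called higher, against 1.16% of 6553 genes, and 1 was called lower, against 1.31%. With the lid KD pair averaged as 1 sample the counts were again 0 and 1, against 1.48% and 1.95% of all genes. Without control replicate 1 there were 1 higher and 5 lower, against 6.90% and 6.20% of all genes, and without control replicate 2 there were 1 and 2, against 4.47% and 6.93%.

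Below this margin the ranks of members leaned downwards in lid KD. The lid KD values lay below both control values, with no overlap, in 39 of 70 members (55.7%), where the background was 40.9% of all genes, and above both in 7 (10.0%), where it was 17.0%. The median difference, lid KD minus control, was -3.51 points over members and -1.36 over all genes tested, and the mean rank was lower in lid KD at 53 of 70 members (75.7%) and at 63.3% of all genes. Genes at large with a divergent neighbour leaned downwards as well. Over 3332 of them the lid KD values lay below both controls in 47.2% and above both in 11.9%, with a median difference of -2.13 points. Over 3221 genes without one the values were 34.5%, 22.3% and -0.56 points. Members without a neighbour leaned too, with 12 of 19 below both controls (63.2%) and a median of -2.53 points. Members with one had 27 of 51 (52.9%) and -3.71 points. The part of the neighbour in this lean was not tested. The size of the members' shift changed with the measure. When peaks were ranked by summit pileup the median difference was -0.73 over members and -0.37 over all genes. By rank of fold enrichment the cytoplasmic ribosomal protein genes had a median difference of -3.65, the other mitochondrial translation genes of -1.45, and the genes of mitochondrial transcription and replication of -4.56. In the same order, lid KD values lay below both controls in 66.7%, 41.7% and 63.6% of these genes.

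Since the strongest peak of a divergent promoter can be on either side, ranks were also read from the gene-side peak alone. Of 61 members with such a rank in all 4 lists, 40 (65.6%) were lower in lid KD without overlap, where the background was 37.5% of genes, and 7 were higher, where it was 18.7%. The median difference was -4.18 points over members and -0.96 over all genes. With the margin of 10 points none was higher, against 1.35% of all genes, and 1 was lower, mRpS22, against 1.12%.

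**Figure D4:**
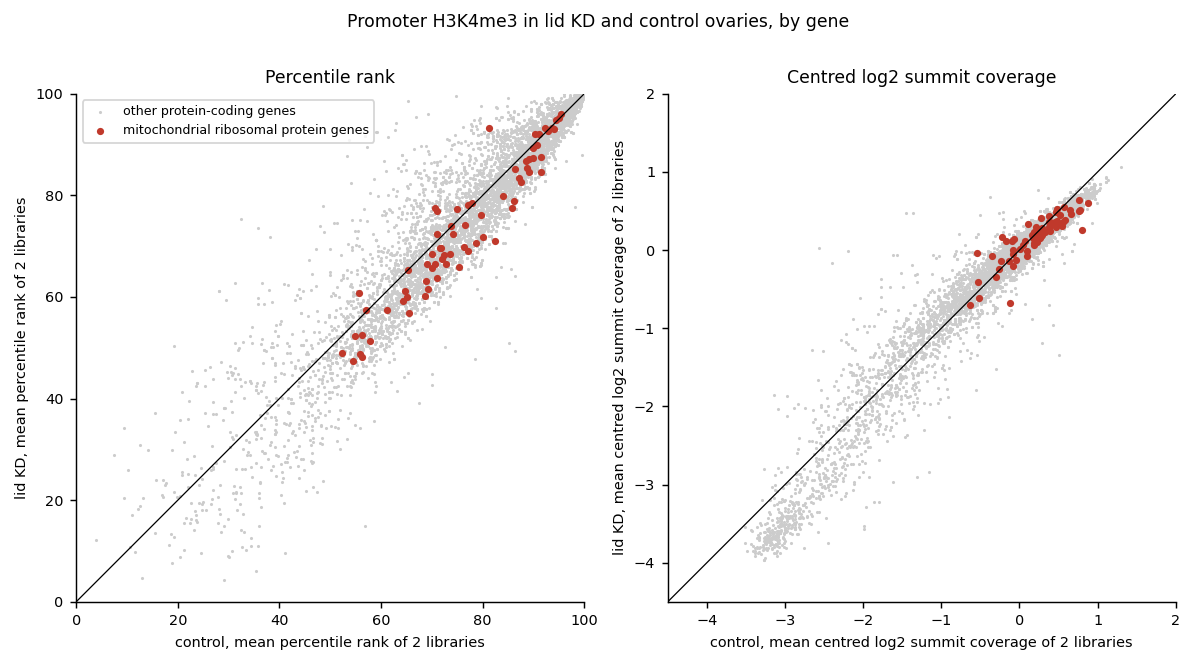
Mean of the 2 lid KD libraries (vertical) against the mean of the 2 control libraries (horizontal) for each protein-coding gene, with mitochondrial ribosomal protein genes in red, other genes in grey and the line of equal values in black. The left panel gives percentile ranks and the right panel log2 summit coverage centred on the median gene. In the left panel 53 of 70 red points lie below the line, and in the right panel the red points form a compact group near and above 0.

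mRpS22 (chr3R:27916908-27918248), a mitochondrial addition to the small subunit, was the member called lower. Its rank was 71.2 and 71.0 in lid KD and 83.3 and 81.5 in control, with fold enrichments of 5.42 and 5.28 in lid KD and 6.05 and 7.42 in control. The strongest peak (chr3R:27915814-27916521 in lid KD replicate 1) lay upstream and was also the promoter peak of CG5003, which had the same ranks. The separate gene-side peak gave ranks of 65.0 and 63.4 in lid KD and 79.7 and 77.0 in control. Summit coverage was 37.2 and 34.7 times the background in lid KD and 27.0 and 45.7 in control. After centring on the median of all genes the log2 values were 0.63 and 0.59 in lid KD and 0.75 and 1.00 in control, which did not overlap but lay under the margin set for coverage. The rank difference was -11.3 points. In the lists as deposited it was -13.8 points and by p-value -8.06, and by pileup -0.88, and in these the nearest values were less than 10 points apart.

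The next widest gaps in this direction stayed under the margin. mRpS26 ranked at 65.9 and 66.1 in lid KD and 75.2 and 75.6 in control, mRpL49 at 61.1 and 59.2 in lid KD and 68.8 and 68.7 in control, and mRpL46 at 57.9 and 55.7 in lid KD and 65.5 and 65.6 in control. The products of all of them are known in mammals as proteins particular to mitochondrial ribosomes. In each case the 2 control values lay within 1 point of each other. mRpS26 passed the margin when peaks with a q-value of at most 0.001 were kept, with -10.4 points, and within classes of GC content, with -14.1 points.

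mRpS7 (chr2L:10386662-10387652) had the widest gap upwards. Its product corresponds to bacterial S7, a protein that starts the assembly of one domain of the small subunit. The rank of its promoter was 92.7 and 93.8 in lid KD and 76.9 and 85.7 in control, with fold enrichments of 10.3 and 10.6 in lid KD and 5.25 and 8.40 in control. The groups did not overlap, and the gap of nearest values stayed under 10 points. The strongest peak was on the gene side in lid KD (chr2L:10386942-10387529 in replicate 1) and on the side of Cdk1 in control (chr2L:10385894-10386271 in replicate 1). Cdk1, the kinase that drives entry into mitosis, starts 400 bp away. The gene-side peak alone ranked at 92.7 and 93.8 in lid KD and 73.9 and 83.8 in control, and its summit coverage was 22.9 and 23.0 times the background in lid KD and 12.3 and 16.6 in control. It was the one member called higher in gene-side coverage, of 60 tested (1.67%), where the background was 1.72% of all genes. Without control replicate 2 mRpS7 passed the rank margin, with a difference of 16.3 points, and it also passed when peaks were ranked by p-value, with 16.7 points, or within classes of GC content, with 25.4 points.

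The other members with a gap upwards differed less. mRpL32 ranked at 77.3 and 77.8 in lid KD and 73.8 and 67.4 in control, and passed the margin only within classes of GC content, with 20.5 points. mRpL3, whose bacterial relative binds early in the assembly of the large subunit, ranked at 76.4 and 77.4 in lid KD and 66.6 and 75.4 in control. mRpS11, a protein of the platform of the small subunit in bacteria, ranked at 93.2 and 93.4 in lid KD and 92.3 and 92.5 in control. The difference of mRpS11, 0.94 points, changed sign in the lists as deposited.

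Summit coverage, on the log2 scale and centred on the median of all genes in each library, gave no member higher and 2 lower by at least 0.3 of the 70 tested. The background was 1.56% of 6712 genes higher and 4.20% lower. Without centring, 4 members were higher and none lower, against 8.54% and 0.432% of all genes, since the median of all genes moved by 0.26 on the log2 scale. The lid KD values lay below both controls in 28 members (40.0%), against 30.5% of genes, and above both in 6, against 17.3%. The median difference was -0.07 over members and -0.04 over all genes. At the cytoplasmic ribosomal protein genes it was -0.19, and 62 of 84 had lid KD values below both controls. With the lid KD pair averaged as 1 sample 1 member was higher and 2 were lower, against 2.04% and 5.39% of all genes. Without control replicate 1, 5 members were higher and 8 lower, against 11.9% and 11.0% of all genes. Without control replicate 2 there were none and 4, against 3.36% and 13.5%, and without lid KD replicate 1 there were 2 and 2, against 2.18% and 5.68%.

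The members called lower in coverage were mRpL37 and mRpL34. mRpL37, a mitochondrial addition to the large subunit, had 30.7 and 25.9 times the background in lid KD and 25.8 and 42.9 in control, or 0.35 and 0.16 in lid KD and 0.69 and 0.91 in control after centring. At mRpL34, a relative of the small bacterial protein L34, the values were 16.5 and 13.3 in lid KD and 15.9 and 19.6 in control, or -0.55 and -0.80 in lid KD and -0.01 and -0.22 in control after centring. In both genes the strongest peaks did not overlap between all libraries. The gene-side peak of mRpL37 alone was also called lower, with 25.5 and 25.9 times the background in lid KD and 25.8 and 37.2 in control, or 0.20 and 0.28 in lid KD and 0.79 and 0.86 in control after centring. It was the only member called lower in gene-side coverage, where the background was 3.49% of all genes. At mRpL34 the strongest peak lay on the side of Dg, the gene for dystroglycan, in lid KD and on the gene side in control. Its gene-side peak alone had 17.9 and 16.8 times the background in lid KD and 15.9 and 19.6 in control, or -0.32 and -0.34 in lid KD and 0.10 and -0.06 in control after centring. Both lid KD values were then below both controls, by less than the margin.

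Width gave 3 members wider in lid KD, of 71 tested, and none narrower, by a ratio of at least 1.2 between the nearest values. The background was 2.54% of 6735 genes wider and 2.63% narrower. At mRpL30 (chrX:4647871-4648646) a single peak of 2938 and 2955 bp was called in lid KD and one of 738 and 802 bp in control. The lid KD peak ran on downstream to 4650883 in replicate 1, while the control peaks ended at 4648589 and 4648776, and its summit lay 2422 and 2441 bp downstream of the start in lid KD, past the end of the gene, against 314 and 351 bp in control. Its ranks of 72.5 and 72.5 in lid KD and 74.6 and 67.5 in control thus belong to different sites. At mRpL22, whose bacterial relative lines the exit tunnel, the width was 980 and 976 bp in lid KD and 741 and 723 bp in control. At mRpL42 it was 1803 and 1856 bp in lid KD and 1502 and 1476 bp in control, where the gene-side peak measured 1049 and 1068 bp in lid KD and 764 and 764 bp in control. With the lid KD pair averaged as 1 sample 4 were wider and none narrower, against 3.76% and 3.73% of all genes. Without control replicate 1 there were 12 wider and 1 narrower, against 19.1% and 9.18%, and without control replicate 2 there were 5 and 7, against 6.22% and 21.3%. Without lid KD replicate 1 or replicate 2 there were 5 wider, against 5.06% and 3.80%.

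In 16 members with a promoter peak in every library the strongest peaks did not all overlap each other, and all 16 had a divergent neighbour. They were mRpL21, mRpL23, mRpL32, mRpL34, mRpL35, mRpL37, mRpL42, mRpL43, mRpL46, mRpL52, mRpL54, mRpS2, mRpS7, mRpS10, mRpS14 and mRpS18A. Their ranks compare different sites in part. In a further 6 members the strongest peaks overlapped but their summits lay more than 500 bp apart, namely mRpL18, mRpL30, mRpL55, mRpS18C, mRpS23 and mRpS28. mRpL43 showed this most, with ranks of 17.5 and 65.8 in lid KD and 60.6 in control replicate 1, and no peak among the 12087 strongest in control replicate 2. Only the gene-side peak met the promoter window in lid KD replicate 1, with a fold enrichment of 1.76, and in control replicate 2, with 1.94. mRpL23 ranked at 61.0 and 60.7 in lid KD and 61.9 and 49.2 in control. mRpL18, which shares the shortest interval, ranked at 61.6 and 53.3 in lid KD and 59.8 and 54.4 in control, and mRpS14 at 65.0 and 65.7 in lid KD and 67.6 and 63.1 in control, so that both overlapped between the groups.

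The small subunit genes outside the symbol rule gave ranks within the range of the members. tko, known in flies for a bang-sensitive allele, ranked at 64.9 and 67.2 in lid KD and 69.7 and 66.2 in control. bonsai ranked at 48.3 and 46.0 in lid KD and 51.9 and 58.2 in control.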

How the data were processed

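Processed peak lists of 4 libraries were used. Per the labels, the authors worked on dm6 (BDGP6) with Bowtie2 2.3.3, Picard 2.17.10 and MACS2 2.1.1, and peaks were called in each library at a q-value of 0.1. Use of an input library in peak calling is not given in the sources used here. The deposited fold enrichment is a ratio of summit pileup to local background, and the deposited -log10 p and -log10 q belong to the same summit. The deposited score column was not used.

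The summit pileup and background were solved from fold enrichment, taken as (pileup + 1)/(background + 1), and the Poisson p-value. A pileup within 0.1 of a whole number was found for all but 4 to 7 peaks per library. At the median summit the counting error was 5.35% and 5.85% in lid KD and 5.97% and 9.25% in control. These errors cover counting only. Peaks were assigned to genes of Ensembl release 115, and the solver and the replicate measure were tested on simulated data. Python 3.11.15, numpy 2.4.6, pandas 2.3.3, scipy 1.17.1 and matplotlib 3.10.9 were used.

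The members, lists and call rules were chosen with earlier results of these data known. Genes named with values were those without a promoter peak in a library, those called by rank or the 4 with the widest gap in a direction, the 4 highest and lowest by rank, the 4 closest neighbours, the 3 widest, and those with differing strongest peaks. Members called in coverage or width, mRpL16, the intervals of mRpL15, mRpL39, mRpL48 and mRpL51, tko and bonsai were added after their values were seen. Alternatives changed the starts, window, q-value, ranking, list length, GC classes, centring, margins, replicate block and libraries. Gene-side peaks, the crossed pairing and the lid KD pair as 1 sample were added after the data were seen. Markers also covered neurons (1 of 3 with a peak in all 4 libraries) and testis or early germ cells (1 of 3), and nos was not used.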

Additional observations from a re-analysis of the deposited data

How the results depend on the processing

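The count of members with a promoter peak in all libraries was 68 with a window of 250 bp and 72 with 1000 bp. It was 71 to 72 without 1 library. The median rank difference stayed downward in every alternative run (-3.90 to -2.64 without 1 library). That difference was -2.03 when ranked by -log10 p, -0.73 by summit pileup and -7.10 in the lists as deposited. The median coverage difference was 0.23 without centring, where all genes had 0.26, and -0.12 to -0.02 without 1 library. Members higher in rank numbered 1 with a window of 1000 bp (1.195% of all genes) and 1 by -log10 p (0.996%). They numbered 2 within GC classes (4.43%), 7 with no margin (17.0%) and 0 to 1 without 1 library (1.48% to 6.90%). Members lower in rank numbered 2 at a q-value of 0.001 (1.88%), 0 by pileup (0.634%), 0 in the lists as deposited (1.96%) and 5 within GC classes (3.25%). They numbered 39 with no margin (40.9%), 0 with a margin of 20 points (0.153%) and 1 to 5 without 1 library (2.11% to 6.93%). Members higher in coverage numbered 1 with a window of 1000 bp (1.83%), 4 without centring (8.54%), 6 with no margin (17.3%) and 1 from gene-side peaks (1.72%). They numbered 1 when both lid KD libraries were averaged (2.04%) and 0 to 5 without 1 library (1.85% to 11.9%). Members lower in coverage numbered 1 with a window of 250 bp (3.59%), 28 with no margin (30.5%) and 0 with a margin of 0.5 (1.33%). They numbered 0 without centring (0.432%), 1 from gene-side peaks (3.49%) and 2 to 8 without 1 library (5.68% to 13.5%). Wider members numbered 5 with a window of 1000 bp (3.11% of all genes) and 14 with no minimum ratio (21.99%). They numbered 1 with a ratio of 1.5 (0.713%) and 5 to 12 without 1 library (3.80% to 19.1%). Narrower members numbered 8 with no minimum ratio (13.1%) and 0 to 7 without 1 library (4.03% to 21.3%). Divergent neighbours numbered 25 within 250 bp. mRpS11 differed by -0.49 points in the lists as deposited. The cause was not tested.

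Libraries of the same number did not deviate together (r = -0.07 over 6553 genes for rank and -0.10 over 6712 for coverage). With the replicate block the calls were 0 higher and 1 lower in rank, against 1.43% and 1.79% of all genes. In coverage they were 0 and 2, against 1.83% and 5.21%, and in width 4 wider and 0 narrower, against 3.21% and 3.76%. The crossed pairing gave 1 member higher and 2 lower in coverage, against 1.98% and 4.90%. With the samples counted as 3, changes of single promoters under the margins cannot be told from the spread between controls.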
